A study of Mus musculus with 6 samples.

Results

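Ttc39b, the nuclear receptors LXRβ and LXRα, and 7 genes that LXR is known to induce were examined in colonic intestinal epithelial cells (IECs) of mice with or without epithelial Nsd2. The 10 genes were taken by exact gene symbol from the 55487 genes listed in the count table, and all 10 passed the filter on low counts. Ttc39b was chosen because it was higher without Nsd2 in these libraries, so its values are given as a description with no test. The other 9 genes were named for their function. The question put to them was whether LXR target transcripts were lower where Ttc39b was higher.

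The RNA-seq series held 6 libraries, 3 from Nsd2 f/f mice and 3 from Nsd2 Vil-KO mice, and all 6 came from animals given dextran sodium sulphate (DSS), a polymer that injures the colonic epithelium. The controls are titled WT in the labels, with NSD2-FF as their genotype. Both genotypes carried floxed Nsd2, a gene for a histone H3 lysine methyltransferase. The Nsd2 Vil-KO mice also carried Villin-Cre, whose promoter is active along the intestinal epithelium, so that non-epithelial cells in a preparation keep an intact gene. The mice were on a C57BL/6J background, controls were littermates, and the methods of the study describe colitis induction with 2% DSS for 5 days at 2 months of age. The day on which RNA was taken, and whether each library came from 1 mouse, are not given in the sources used here, so p-values measure only the spread between these libraries. IECs were released from colon pieces with EDTA and were not sorted in the protocol given.

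LXRα (Nr1h3) and LXRβ (Nr1h2) are nuclear receptors that bind oxysterols, pair with a retinoid X receptor and switch on genes that move cholesterol out of cells. Ttc39b, a tetratricopeptide repeat protein, is known to promote the ubiquitination and degradation of LXR protein, and its loss in mouse intestine and liver is known to raise LXR-driven cholesterol efflux. LXR protein was not measured in these libraries. In the intestine, LXR targets include Abca1, which loads cholesterol onto apolipoprotein A-I for HDL, and Abcg5 and Abcg8, which together return sterols to the lumen.

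The letters that LXR is known to bind, a direct repeat of AGGTCA with 4 bases between the copies (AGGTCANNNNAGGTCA), were searched on both strands in the 250 bases before each RefSeq gene start (GRCm38.p6). No correction was made for overlap with other motifs. Windows were present for 9 of the 10 genes, 13 windows in all. Abcg1 had no window. Among these genes the closest matches, with 3 mismatches over the paired copies, were in Abca1 and in 1 of the 3 windows of Srebf1. A match this close occurred in 18.5% of the 32851 windows in the table. The Abca1 and Srebf1 matches are shown because they have the same letters apart from part of the spacer. Fasn, a fatty acid synthase gene of the wider LXR target list, is shown because it was the only other gene with all the letters they share. Each is printed on the strand of its gene, which is the minus strand for all 3, with the match in capitals.
Abca1, chr4:53159942-53159967: gcgttTGACCGGTAGTAACCCcggcg
Srebf1, chr11:60210633-60210658: gacagTGACCGCCAGTAACCCcagcg
Fasn, chr11:120824752-120824777: cacgaTGACCGGTAGTAACCCcgcct

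The repeat itself read on the opposite strand, where the match was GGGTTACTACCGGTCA in Abca1 and Fasn and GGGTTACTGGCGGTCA in Srebf1. It lay 51 bases before the start of Abca1, 166 before that of Srebf1 and 209 before that of Fasn. The shared letters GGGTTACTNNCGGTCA, written down after the matches had been seen, occurred in 3 of 32851 windows (0.00913%). These are matches of letters in the reference, and binding was not measured. The remaining genes with a window had at least 4 mismatches, as did the other 2 Srebf1 windows, and a match with up to 4 mismatches was found in 70.6% of all windows.

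The libraries held 15439123 to 20350539 counted reads, and 3 counts in 1 library corresponded to 0.146 to 0.242 CPM (counts relative to the library total), a floor that covers counting error only. CPM values were scaled by the trimmed mean of M values (TMM), and where 3 values are listed they are replicates 1, 2 and 3 in that order. The epithelial label was checked with 8 markers such as Epcam, Cdh1 and Vil1, whose summed level was 11902 to 17817 CPM in Nsd2 f/f and 13330 to 16158 CPM in Nsd2 Vil-KO libraries. Nsd2 itself was at 47.9, 51.2 and 24.6 CPM in Nsd2 f/f and at 24.2, 10.4 and 20.8 CPM in Nsd2 Vil-KO (log2 difference −1.16, SE 0.40). The knockout libraries lay below the controls, although Nsd2 f/f replicate 3 exceeded Nsd2 Vil-KO replicate 1 by less than 1 CPM. Nsd2 f/f replicate 3 and Nsd2 Vil-KO replicate 2 stood apart from the other 4 libraries. They alone held Xist, the RNA of the inactive X chromosome, with 4296 and 3684 counts against at most 5 elsewhere, and their mean Spearman correlation with the others was 0.933 against 0.981 among the others. Mitochondrial genes took 19.6% of counts in Nsd2 f/f replicate 3 and 5.51% to 9.13% in the rest. Values without both libraries that held Xist are given beside the results for the members and the gene lists.

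Ttc39b (chr4:83220300-83324255 on GRCm38, minus strand) was at 65.1, 57.8 and 49.6 CPM in Nsd2 f/f. In Nsd2 Vil-KO it was at 91.5, 96.0 and 96.4 CPM. The knockout libraries were close to each other, and each lay above every control. The means were 57.5 ± 7.75 CPM (SD, n = 3) and 94.6 ± 2.77 CPM (SD, n = 3), a difference of 0.72 on the log2 scale (SE 0.16) or 1.64-fold. These are the values that chose the gene. Among all 14650 genes tested, 5.21% had every Nsd2 Vil-KO library above every Nsd2 f/f library, and 1.51% were higher past the screening criterion of a fold change above 1.2 with an unadjusted p below 0.05. The log2 difference was 0.62 with only the 4 libraries without Xist and 0.71 without Nsd2 Vil-KO replicate 2.

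**Figure D1:**
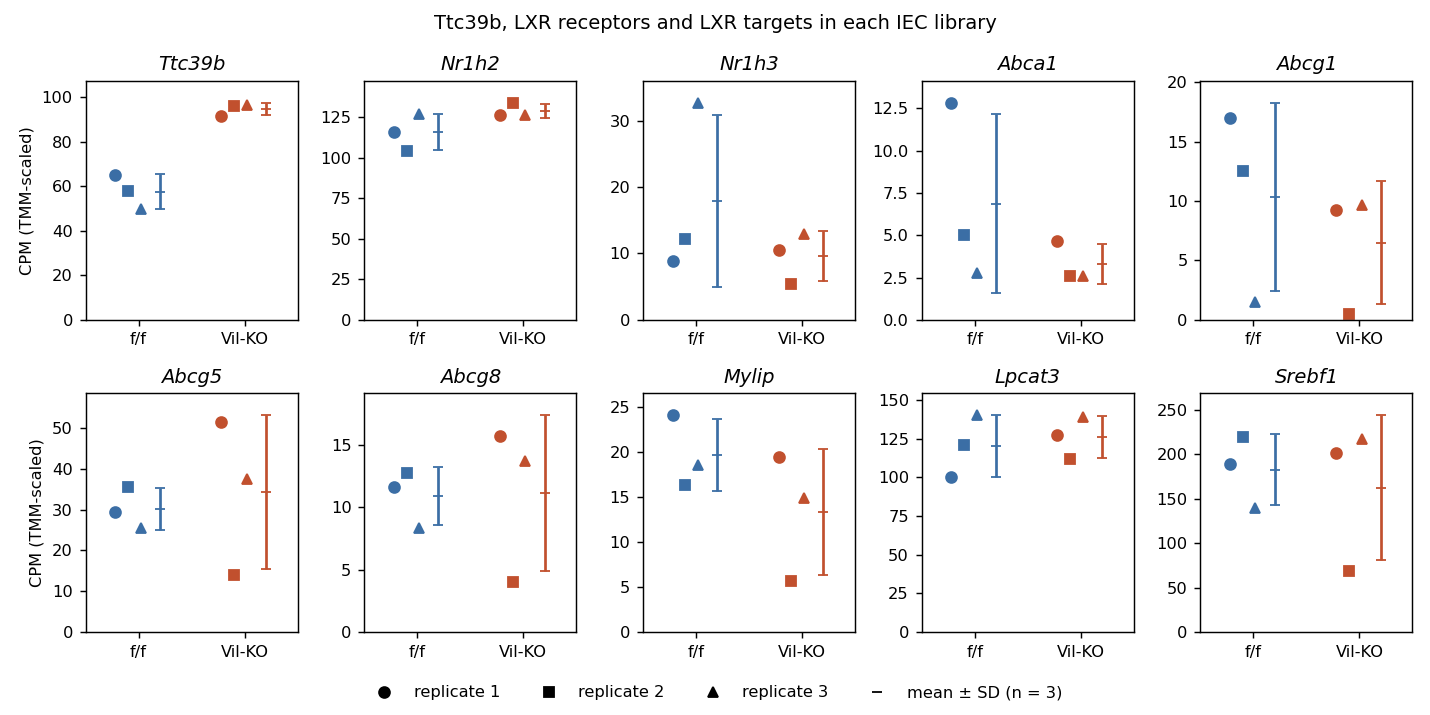
TMM-scaled CPM (vertical axes, from 0) of the 10 genes in each library, with Nsd2 f/f in blue and Nsd2 Vil-KO in red, markers for replicates, and bars for the mean ± SD (n = 3). Ttc39b is the only panel whose genotypes do not overlap, and Nsd2 Vil-KO replicate 2 (red square) is the lowest library for Nr1h3, Abcg1, Abcg5, Abcg8, Mylip and Srebf1.

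No relative of Ttc39b passed the criterion. Ttc39a, the most abundant member of the family at a mean of 40.1 FPKM (here TMM-scaled CPM divided by the exon length in kilobases) against 7.46 FPKM for Ttc39b, differed by 0.04 on the log2 scale (SE 0.21, edgeR quasi-likelihood adjusted p = 0.999) and by −0.05 in the 4 libraries without Xist. Ttc39c was low, with 11 to 59 counts a library and a log2 difference of −0.83 (SE 0.74). Ttc39d was listed with 0 counts in each library.

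Ttc39b was next set beside the 9236 genes whose mean reached 10 CPM by Pearson's r of log2 CPM over the 6 libraries, as a description. Among the genes with the most similar pattern were Rock2 (r = 0.995), a kinase of the actin cytoskeleton, Aff4 (r = 0.991), a scaffold of the super elongation complex, Styx (r = 0.988) and Ythdc2 (r = 0.986), an RNA helicase. The most opposite patterns were those of Trim44 (r = −0.984), Ccdc68 (r = −0.972) and Cpq (r = −0.970). In all, 96 genes had r of at least 0.9 and 63 had r of −0.9 or below, and the points share library depth and the split between genotypes. None of the LXR genes was among them. Their r with Ttc39b was 0.53 for Nr1h2, close to 0 for Abcg5 (0.0024), Lpcat3 (−0.04) and Abcg8 (−0.08), −0.21 for Srebf1, −0.50 for Mylip and −0.68 for Nr1h3. Abca1 and Abcg1 had means under 10 CPM and were not ranked.

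Of the 9 genes other than Ttc39b, 0 passed the screening criterion, which 434 of 14650 genes (2.96%) passed in either direction, 221 of them higher (1.51%) and 213 lower (1.45%) in the knockouts. With Benjamini-Hochberg adjustment of the edgeR quasi-likelihood test no gene of the 14650 passed 0.05, whereas DESeq2 called 4 genes, and 434 genes had an unadjusted p below 0.05. The unadjusted p of the 9 genes ran from 0.129 to 0.953 in edgeR and their adjusted p was 0.999. None of the 9 had libraries that separated by genotype, against 9.9% of all genes, 5.21% with every knockout above and 4.7% with every knockout below. With 3 libraries a genotype these p-values do not show that the genes were the same in both.

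Both receptors were expressed. Nr1h2 (chr7:44549616-44553951), the broadly expressed LXRβ, was at 115.9, 104.3 and 127.0 CPM in Nsd2 f/f and at 126.2, 133.8 and 126.0 CPM in Nsd2 Vil-KO. The knockout values lay within or just above the control range, with a log2 difference of 0.15 (SE 0.16) with all libraries and 0.21 in the 4 libraries without Xist. It was the steadiest of the 10 genes, its highest library being 1.28 times its lowest.

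Nr1h3 (chr2:91184061-91202834), LXRα, which is prominent in liver, intestine and macrophages, was at 8.87, 12.2 and 32.7 CPM in Nsd2 f/f and at 10.5, 5.44 and 12.9 CPM in Nsd2 Vil-KO. A single control library, replicate 3, was far above the rest, and the other 5 overlapped between genotypes. The log2 difference was −0.90 (SE 0.56) with all libraries, −0.13 without Nsd2 f/f replicate 3 and 0.16 in the 4 libraries without Xist. The same control library had the highest summed level of 8 surface colonocyte markers such as Slc26a3, Car4 and Aqp8, at 7310 CPM against 2011 to 3283 CPM in the other 5. Not every marker of the list was highest there. Krt20 was at 1137 CPM against 1432 CPM in Nsd2 Vil-KO replicate 3, and Ceacam20 at 176.8 CPM against 200.6 CPM in Nsd2 Vil-KO replicate 1. The part of the difference in the marker sum in the Nr1h3 value was not tested. Per exon length, Nr1h2 exceeded Nr1h3 in each library, from 2.91 times in Nsd2 f/f replicate 3 to 18.5 times in Nsd2 Vil-KO replicate 2.

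The ratio of Ttc39b to Nr1h2 in FPKM, transcripts of the degradation factor per transcript of the main receptor, was 0.185, 0.182 and 0.128 in Nsd2 f/f and 0.238, 0.236 and 0.252 in Nsd2 Vil-KO. The genotypes did not overlap in this ratio. Ttc39b was chosen for being higher in the knockouts, and Nr1h2 varied only 1.28-fold between libraries. The separation therefore follows largely from that choice and is not a separate result.

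Abca1 (chr4:53030787-53159895), the efflux transporter for lipid-poor apolipoprotein A-I, was the lowest of the 10 genes per exon length. It was at 12.8, 5.02 and 2.75 CPM in Nsd2 f/f, from 259, 85 and 34 counts, and at 4.68, 2.61 and 2.61 CPM in Nsd2 Vil-KO, from 96, 47 and 51 counts. Nsd2 f/f replicate 1 was far above the rest, replicate 2 was just above the knockouts and replicate 3 lay inside their range. The log2 difference of −1.06 (SE 0.62) was the largest in size among the 9 genes and became −0.24 without Nsd2 f/f replicate 1 and −1.43 (SE 0.53) without Nsd2 f/f replicate 3. In that last fit Abca1 passed the criterion (edgeR unadjusted p = 0.0370, adjusted p = 0.9997), as did 2.89% of all genes. The 4 libraries without Xist gave −1.28.

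Abcg1 (chr17:31057675-31117988), which passes cholesterol to mature HDL, varied most between libraries. It was at 16.9, 12.5 and 1.53 CPM in Nsd2 f/f, from 342, 212 and 19 counts, and at 9.26, 0.499 and 9.66 CPM in Nsd2 Vil-KO, from 190, 9 and 189 counts. The low libraries were the same pair that held Xist, 1 of each genotype, and the highest library was 33.9 times the lowest. The log2 difference was −0.68 (SE 1.09) with all libraries, −0.12 without Nsd2 f/f replicate 1, −0.13 without Nsd2 Vil-KO replicate 2 and −1.18 without Nsd2 f/f replicate 3. Without Nsd2 Vil-KO replicate 1 or 3 it was −1.02 or −1.08. With Xist as a covariate it was −0.87 (SE 0.29, edgeR unadjusted p = 0.0238, adjusted p = 0.667). In the 4 libraries without Xist it was −0.63 (SE 0.21, edgeR unadjusted p = 0.0183, adjusted p = 0.379). Abcg1 passed the screening criterion in both of these fits, as did 7.39% and 10.9% of all genes in them. In neither edgeR fit was there a gene with an adjusted p under 0.05.

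Abca1 and Abcg1 are also abundant in macrophages, and the libraries differed in macrophage transcripts. The summed level of 10 macrophage markers was 242.2, 96.5 and 63.3 CPM in Nsd2 f/f and 109.3, 32.0 and 54.5 CPM in Nsd2 Vil-KO. Of the tested markers 9 of 9 were lower in Nsd2 Vil-KO, as were 49.8% of all genes, with none past the criterion. Without Nsd2 f/f replicate 1 the same markers divided into 4 higher and 5 lower. Without both libraries that held Xist 8 of 9 were lower, and 4 of them passed the criterion, which 10.9% of all genes passed there. Of the defining markers, Adgre1 was at 5.60 CPM in Nsd2 f/f replicate 1 and at 0 CPM in Nsd2 f/f replicate 3, and Cd163 was at 0 CPM in Nsd2 Vil-KO replicates 2 and 3. Nsd2 f/f replicate 1, the highest library for Abca1 and Abcg1, also had the highest macrophage sum, and 8 fibroblast markers summed to 275.5 CPM there against 6.66 to 81.6 CPM in the other 5. The part of these cells in the values of Abca1 and Abcg1 was not tested. In bulk libraries, fewer cells of a type and less RNA per cell cannot be told apart.

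Abcg5 (chr17:84658234-84683011) and Abcg8 (chr17:84676302-84700333) encode the paired subunits of the sterol exporter of the apical membrane and lie next to each other on opposite strands. Abcg5 was at 29.3, 35.6 and 25.4 CPM in Nsd2 f/f and at 51.4, 14.0 and 37.4 CPM in Nsd2 Vil-KO. Abcg8 was at 11.6, 12.8 and 8.32 CPM in Nsd2 f/f and at 15.7, 4.05 and 13.7 CPM in Nsd2 Vil-KO. In both genes Nsd2 Vil-KO replicates 1 and 3 lay above every control and replicate 2 below every control.

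The log2 difference was 0.19 for Abcg5 (SE 0.44) and 0.03 for Abcg8 (SE 0.50). Without Nsd2 Vil-KO replicate 2 the value was 0.56 for Abcg5 (SE 0.22, edgeR unadjusted p = 0.0436, adjusted p = 0.784) and 0.43 for Abcg8. In the 4 libraries without Xist it was 0.47 for Abcg5 (SE 0.19, edgeR unadjusted p = 0.0465, adjusted p = 0.444) and 0.28 for Abcg8. Of the pair, Abcg5 alone passed the screening criterion in those fits, and it was higher, not lower, in the knockouts. The criterion was passed by 4.75% of all genes in the first of these fits and by 10.9% in the second. Without Nsd2 Vil-KO replicate 1 the Abcg5 value was −0.23. The ratio of Abcg5 to Abcg8 in FPKM was 3.48 to 4.23 in Nsd2 f/f and 3.78 to 4.79 in Nsd2 Vil-KO libraries, so that the pair kept nearly the same proportion while its level varied 3.66-fold and 3.88-fold. Their exons overlap by 82 bases on opposite strands, and the use of strand in counting is not given in the sources used here.

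Mylip (chr13:45389742-45412022) encodes the ubiquitin ligase IDOL, which LXR induces to degrade the LDL receptor. It was at 24.1, 16.3 and 18.5 CPM in Nsd2 f/f and at 19.4, 5.71 and 14.9 CPM in Nsd2 Vil-KO. Nsd2 Vil-KO replicate 2 was the lowest, and replicate 1 lay inside the control range. The log2 difference of −0.56 (SE 0.44) became −0.20 without Nsd2 Vil-KO replicate 2 and −0.23 in the 4 libraries without Xist.

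Lpcat3 (chr6:124663027-124704418), which places polyunsaturated chains into phospholipids, was at 100.4, 121.0 and 140.1 CPM in Nsd2 f/f and at 127.3, 111.7 and 138.8 CPM in Nsd2 Vil-KO. All knockout values fell inside the control range. The log2 difference was 0.06 (SE 0.19) with all libraries and 0.28 in the 4 libraries without Xist, and the highest library was 1.40 times the lowest. Exons of Emg1 on the opposite strand overlap it by 334 bases.

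Srebf1 (chr11:60199089-60222581), the lipogenic transcription factor SREBP-1, was at 188.8, 219.9 and 139.9 CPM in Nsd2 f/f and at 201.2, 68.6 and 217.5 CPM in Nsd2 Vil-KO. Nsd2 Vil-KO replicate 2 was under every other library and the remaining pair of knockouts sat inside the control range. The log2 difference was −0.17 (SE 0.43) with all libraries, 0.20 without Nsd2 Vil-KO replicate 2 and 0.05 in the 4 libraries without Xist. The counts do not separate the transcript that starts at the window with the LXR-type match from the longer forms, and exons of Rai1 on the opposite strand overlap the gene by 109 bases.

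**Figure D2:**
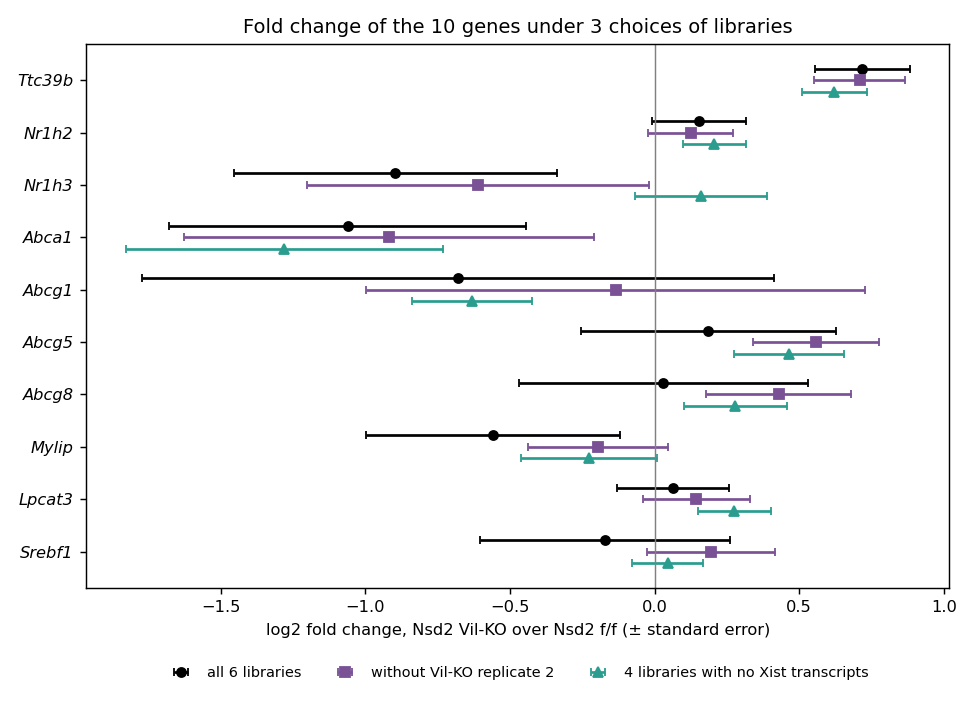
Log2 fold change of Nsd2 Vil-KO over Nsd2 f/f (horizontal axis, ± SE) for each of the 10 genes, from all 6 libraries (black circles), without Nsd2 Vil-KO replicate 2 (purple squares) and from the 4 libraries without Xist (green triangles). Ttc39b stays between 0.62 and 0.72 in these 3 fits, while Nr1h3 and Srebf1 cross 0 and Abcg5 and Abcg8 move up.

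Across the 7 targets, 3 had a positive and 4 a negative difference, with a median log2 difference of −0.17, where the median over all 14650 genes was 0.0026 and 49.8% were lower. The median of the 7 was −0.44 without Nsd2 Vil-KO replicate 3, 0.14 without Nsd2 Vil-KO replicate 2 and 0.05 in the 4 libraries without Xist, so its sign rested on which libraries were kept. In those 4 libraries 4 targets were higher and 3 lower. Of these, 1 passed the criterion in each direction (Abcg5 and Abcg1), where 10.9% of all genes passed. The values of the 7 targets did not share a sign. With all 6 libraries the efflux transporters Abca1 (−1.06, SE 0.62) and Abcg1 (−0.68, SE 1.09) had negative values. Those of Abcg5 (0.19, SE 0.44) and Abcg8 (0.03, SE 0.50) were positive. For Abcg1, Abcg5 and Abcg8 the SE exceeded the difference, so these signs do not set the transporters apart.

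The targets also differed between libraries of 1 genotype. Measured as log2 CPM minus the mean of each gene over the 6 libraries, the median of the 7 targets was 0.23, 0.25 and −0.23 in Nsd2 f/f and 0.36, −1.23 and 0.32 in Nsd2 Vil-KO. Nsd2 Vil-KO replicate 2 was below the gene's mean for 7 of 7 targets and the lowest library for 5 of them (71.4%), where it was the lowest for 29.2% of all genes tested. Its Ttc39b level was almost equal to those of the other knockouts, at 0.38 against 0.31 and 0.39 above the mean. Nsd2 Vil-KO replicates 1 and 3 had high Ttc39b with target medians above those of the controls. The margin (0.36 and 0.32 against at most 0.25) was smaller than the spread of the controls, from −0.23 to 0.25. In Nsd2 Vil-KO replicate 3, 2 of the 7 targets were below their mean, Abca1 (−0.68) and Mylip (−0.03), against 0 of 7 in replicate 1. Nsd2 Vil-KO replicate 2 had 2353 CPM of 8 summed neutrophil markers against 197.8 to 884.6 CPM in the other 5. Most of it came from Ly6g (1355 CPM), S100a8 (573.9 CPM) and S100a9 (404.9 CPM). Csf3r of the same list was at its lowest there, at 0.666 CPM against 0.727 to 31.0 CPM. The part of these cells in the target values was not tested.

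**Figure D3:**
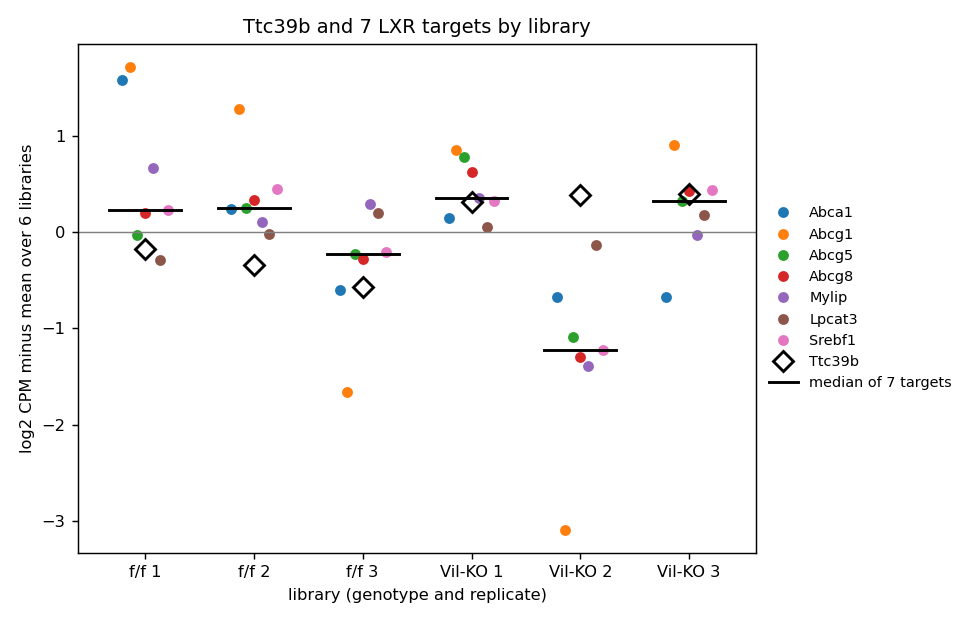
Log2 CPM minus the gene's mean over 6 libraries (vertical axis) for the 7 LXR targets (coloured points), their median (black line) and Ttc39b (open diamond) in each library (horizontal axis). Ttc39b is above 0 in the 3 Nsd2 Vil-KO libraries, whereas the target median is 0.36, −1.23 and 0.32 in them.

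Levels were compared between the genes per exon length. Mean FPKM over the 6 libraries was 37.7 for Lpcat3, 36.4 for Nr1h2, 30.6 for Srebf1, 11.9 for Abcg5, 7.46 for Ttc39b, 5.47 for Nr1h3, 5.10 for Mylip, 2.94 for Abcg8, 1.15 for Abcg1 and 0.490 for Abca1. The ranges of every pair of neighbours in this order overlapped. Within libraries, Srebf1 exceeded Abcg5, Mylip exceeded Abcg8 and Abcg8 exceeded Abcg1 in 6 of 6, while Lpcat3 exceeded Nr1h2 in 4 of 6 and Nr1h3 exceeded Mylip in 3 of 6. Abcg5 ran from 5.18 to 18.9 FPKM and Abca1 from 0.251 to 1.24 FPKM, so these ranges, which are not neighbours, did not overlap. By mean FPKM Abca1 stood at percentile 11.8 of the tested genes and Lpcat3 at percentile 89.7.

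**Figure D4:**
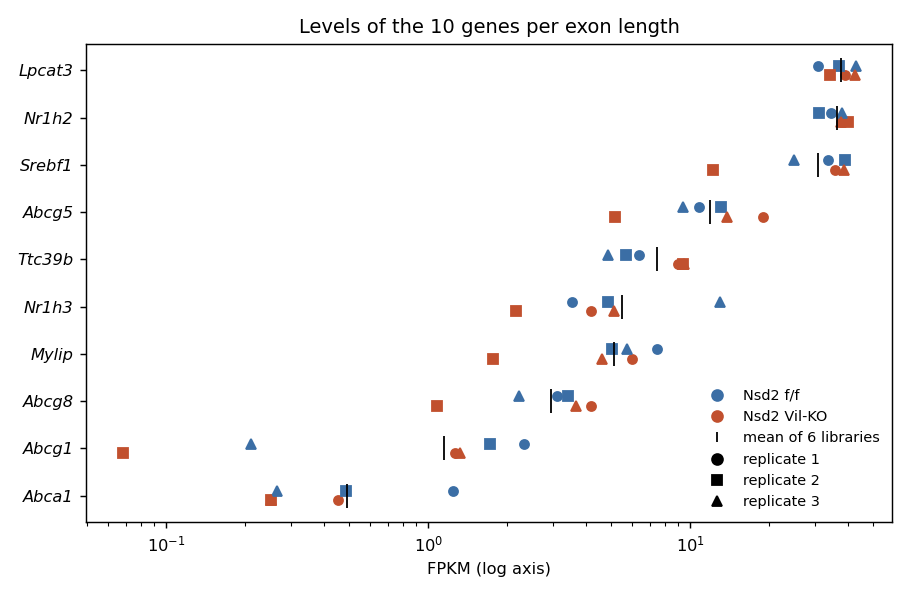
FPKM on a log axis for the 10 genes in the 6 libraries, ordered by the mean (black tick), with Nsd2 f/f in blue and Nsd2 Vil-KO in red. Levels run from a mean of 37.7 for Lpcat3 to 0.490 for Abca1, and Abcg1 spreads widest, from 0.0684 to 2.32 FPKM.

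The receptor's partners and coregulators were listed next, as counts and medians beside all genes. Of 11 listed genes 9 were tested, 9 had a positive difference, 0 passed the criterion, and the median log2 difference was 0.15. Over all 14650 genes tested, 49.8% were lower, 2.96% passed the criterion and the median was 0.0026. Gps2, a corepressor subunit, was at 37.9, 48.5 and 45.4 CPM in Nsd2 f/f and 43.7, 52.5 and 41.6 CPM in Nsd2 Vil-KO, and Rxrb was at 61.5, 59.2 and 61.0 CPM against 58.7, 73.4 and 52.9 CPM. Both overlapped between genotypes. In the 4 libraries without Xist 7 were higher and 2 lower, and 5 of the higher genes passed the criterion, which 10.9% of all genes passed there.

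Of 15 further LXR targets 13 were tested, with 2 higher, 11 lower and 0 past the criterion (median −0.24). Among all genes tested 49.8% were lower and 2.96% were past the criterion. Scd2, a stearoyl-CoA desaturase and the most abundant of them, was at 1835, 2075 and 1642 CPM in Nsd2 f/f and at 1867, 207 and 2334 CPM in Nsd2 Vil-KO. Its genotypes overlapped, with replicate 2 of the knockouts alone far below. Smpdl3a, a phosphodiesterase, was at 412.5, 387.7 and 606.9 CPM in Nsd2 f/f and at 401.7, 453.8 and 342.1 CPM in Nsd2 Vil-KO. Fasn, which shares the promoter letters printed above with Abca1 and Srebf1, was at 323.7, 446.4 and 282.5 CPM against 365.0, 115.2 and 467.0 CPM and is named here for that reason. Nsd2 Vil-KO replicate 2 was the lowest library for 7 of the 13, where it was the lowest for 29.2% of all genes tested. Without both libraries that held Xist, 7 were higher and 6 lower with a median of 0.11. There 1 of the higher genes passed the criterion, as did 10.9% of all genes.

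The sterol-sensing arm driven by SREBP2, which opposes LXR in cholesterol balance, gave 2 higher and 12 lower of 14 tested. None passed the criterion, and the median was −0.24. Among all genes tested 49.8% were lower and 2.96% passed. Hmgcs1, an early enzyme of the mevalonate pathway, was at 331.2, 382.5 and 630.8 CPM in Nsd2 f/f and at 282.2, 226.8 and 369.9 CPM in Nsd2 Vil-KO (log2 difference −0.61, SE 0.32). Mvd, a later enzyme, was at 116.1, 150.7 and 154.8 CPM against 102.6, 64.5 and 119.9 CPM (−0.55, SE 0.27). In both, 2 knockouts were under every control and replicate 3 overlapped. Hmgcs1 differed by −0.12 and Mvd by −0.25 on the log2 scale in the 4 libraries without Xist. Hmgcs1 was at −0.28 without Nsd2 f/f replicate 3. Mvd was at −0.34 without Nsd2 Vil-KO replicate 2, and it passed the criterion without Nsd2 Vil-KO replicate 3 (−0.75, edgeR unadjusted p = 0.0428, adjusted p = 0.999). In that last fit 2.84% of all genes passed. Nsd2 Vil-KO replicate 2 was the lowest for 11 of the 14 genes, where it was the lowest for 29.2% of all genes tested. In the 4 libraries without Xist 4 of the list were higher and 10 lower (median −0.10).

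Of 10 genes that make or inactivate oxysterols, the ligands of LXR, 5 were tested. Of these 1 was higher, 4 were lower and 0 were past the criterion (median −0.22). Among all genes tested 49.8% were lower and 2.96% were past it. Ebp was at 102.7, 100.4 and 174.7 CPM in Nsd2 f/f against 93.2, 96.6 and 110.1 CPM in Nsd2 Vil-KO, with overlap between genotypes. In the 4 libraries without Xist 2 of the 5 were higher and 3 lower (median −0.02). The untested 5, among them Ch25h, had too few counts.

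Of 12 genes of sterol uptake, esterification and lipoprotein assembly 9 were tested. Of these 7 were higher and 2 lower (median 0.42), where 49.8% of all genes were lower. The criterion was passed by 1 of the 9, as it was by 2.96% of all genes. That gene was Npc1, which exports cholesterol from lysosomes, at 22.1, 23.6 and 18.7 CPM in Nsd2 f/f and 29.7, 50.6 and 29.0 CPM in Nsd2 Vil-KO. Each knockout lay above each control, with the library that stood apart highest, and the log2 difference was 0.76 (SE 0.27, edgeR unadjusted p = 0.0259, adjusted p = 0.999). The value was 0.37 in the 4 libraries without Xist and 0.45 without Nsd2 Vil-KO replicate 2. Npc1 passed in both fits, as did 10.9% and 4.75% of all genes in them. Npc1 did not pass without Nsd2 f/f replicate 1 (0.78), without Nsd2 f/f replicate 3 (0.67) or on log2(FPKM + 1). In the 4 libraries without Xist the list divided into 4 higher and 5 lower with a median of −0.12, and 1 passed the criterion in each direction.

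**Figure D5:**
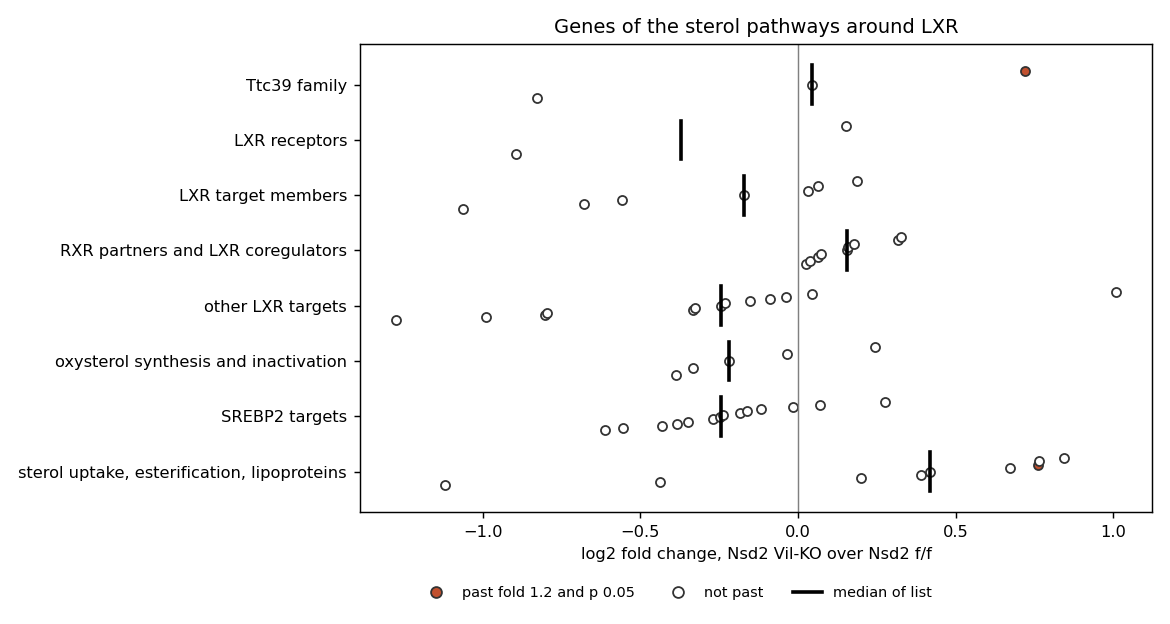
Log2 fold change of Nsd2 Vil-KO over Nsd2 f/f (horizontal axis) for each tested gene of 8 lists of the sterol pathways, with the list median as a bar and genes past a fold change of 1.2 and p of 0.05 filled. Npc1 (0.76) and Ttc39b (0.72) are the only filled points. Ttc39b was chosen on this contrast, so its fill is a description and not a test result.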

How the data were processed

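The authors deposited 1 table of raw counts, in whole numbers per Ensembl gene, for 6 libraries of DSS-treated mouse colon IECs. All 6 columns were used and 0 were left out. The submitters' processing notes name HISAT2 and mm10. How reads were assigned to genes, and whether strand was used, is not given in the sources used here. The kit in the labels is not the one in the methods.

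Genotypes were compared with edgeR 4.0.16 in R 4.3.3 (TMM, filterByExpr by genotype, robust quasi-likelihood test, Benjamini-Hochberg adjustment over the 14650 genes tested). A SE is the log2 difference divided by the root of the test statistic F. The screening criterion (fold change over 1.2, unadjusted p under 0.05) follows the published results, which were made on FPKM, whereas the published methods name an adjusted p under 0.05. Both were counted. Log2 CPM used a prior count of 2. FPKM was computed here from TMM-scaled CPM and merged exon lengths of GENCODE vM21 (GRCm38), in which 99.5% of listed genes were found. Promoter windows came from RefSeq (GRCm38.p6). The fit was checked on simulated counts. Alternatives used DESeq2 1.42.0 and limma 3.58.1, and figures matplotlib 3.10.9.

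The 10 genes and the lists were chosen with earlier results of these data known. Named genes were the 10 members, Nsd2, genes of each list past the criterion or otherwise its 2 most abundant by FPKM, and the 5 most and 3 least similar to Ttc39b, and some of these genes are not reported here. The members' counts set the precision: Abca1 had 34 to 259 and Abcg1 9 to 342 counts a library. Cell type markers were summed as CPM.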

Additional observations from a re-analysis of the deposited data

How the results depend on the processing

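The log2 difference of Ttc39b was positive under all 17 alternatives, from 0.62 to 0.82. The 434 genes past the criterion became 684 without the filter on low counts, 1440 with limma-voom, 1082 with Xist as a covariate, 1636 in the 4 libraries without Xist, 237 at a fold above 2 and 0 by adjusted p (edgeR; 4 by DESeq2), and 266 to 719 when 1 library was left out, fewest without Nsd2 f/f replicate 2 and most without replicate 2 of the knockouts. Of the 9 genes other than Ttc39b, 0 passed the criterion with all libraries, 1 with Xist as a covariate (Abcg1), 2 in the 4 libraries without Xist (Abcg1 and Abcg5), and 0 to 1 when 1 library was left out (Abca1 without Nsd2 f/f replicate 3, Abcg5 without Nsd2 Vil-KO replicate 2). The sign of the log2 difference turned for Nr1h3 with limma-voom (0.044) and in the 4 libraries (0.16), for Srebf1 in the 4 libraries (0.045), and for Abcg8 on log2(FPKM + 1) (−0.018) and with Xist as a covariate (−0.14). With 1 library left out the values ran from −0.44 to 0.20 for Srebf1, −0.23 to 0.56 for Abcg5, −0.30 to 0.43 for Abcg8, −0.051 to 0.19 for Lpcat3, and −0.44 to 0.14 for the median of the 7 targets. Abcg1 gave no value under a minimum of 10 counts in every library. The cause of these changes was not tested.

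The replicate numbers of the genotypes did not clearly pair the libraries. Deviations of same-numbered libraries correlated at 0.32, −0.35 and −0.11, and not every library correlated best with its own number. Each deviation was from a mean of 3 libraries that included the library that stood apart, so a pairing is not excluded. With the replicate block 267 genes passed the criterion, 0 of the 9 genes did, the Abcg8 difference was −0.13 and the median of the 7 targets −0.30.

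Depth limits Abcg1, whose 9 counts in Nsd2 Vil-KO replicate 2 are near the floor of 3 counts, and each genotype has 1 library that stands apart, so that 2 libraries a genotype remain without them.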
